A study of Sus scrofa with 6 samples.

Results

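Mitotic cells of porcine midbrain-like organoids were described across 3 days of culture. The cells were chosen by their measured UMIs. A cell was counted as mitotic when it had 2000 or more UMIs (unique molecular identifiers, 1 per captured transcript), at most 7000 detected genes and at least 1 UMI of 3 or more of TOP2A, CENPF, NUSAP1, UBE2C and BIRC5. Of 104820 barcodes in the series, 69679 cells passed the limits on UMIs and genes, and 12136 of these met the marker rule. There were 4588 and 5085 mitotic cells in the libraries D11 A and D11 B, 664 and 641 in D28 A and D28 B, and 489 and 669 in D45 A and D45 B. The remaining 57543 cells of the same libraries, from 8460 to 10471 in each, are called other cells below.

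The organoids were grown from 1 pig embryonic stem cell line, IVF_1_pESC_FIW, made from an embryo fertilized in vitro, and were sampled on day 11 (D11), day 28 (D28) and day 45 (D45), with 2 libraries a day labelled A and B. All had been patterned with SB431542, Noggin, SHH-C24II and CHIR99021, then given FGF8, and then, before D11, FGF8 with BDNF and ascorbic acid. The D28 and D45 organoids had since been embedded in Matrigel and kept in BDNF and ascorbic acid without FGF8, now with GDNF, db-cAMP and DAPT, which blocks Notch cleavage. Day, medium and embedding therefore cannot be told apart. A single line limits the series as a model, and the label gives the cells as midbrain dopaminergic neurons. Of the genes that define such neurons, TH was at 1.82 to 8.20 CPM (UMIs scaled to a total of 1000000 in each class of cells and library, the unit of every level given here) in the mitotic cells of the 6 libraries and at 17.3 to 61.5 in other cells, the dopamine transporter SLC6A3 at 0.125 to 1.00 and 0.372 to 2.79, and PITX3 at no more than 0.455 in either. DDC was at 5.74 to 20.6 CPM in mitotic and 16.2 to 75.3 in other cells. NR4A2 was at a like level in both, 43.1 to 77.0 and 43.2 to 92.6 CPM, and was higher in the mitotic cells of D45 A. The 5 genes were not tested.

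Neural progenitors divide before they differentiate. TOP2A untangles DNA, CENPF sits at kinetochores, NUSAP1 bundles spindle microtubules, UBE2C loads ubiquitin for the anaphase-promoting complex and BIRC5 (survivin) belongs to the chromosomal passenger complex, and all of them accumulate from S phase to mitosis. In the ventral midbrain the dividing cells include floor plate progenitors, which express FOXA2, LMX1A and CORIN. Later in development, neural progenitors give rise to glia, and oligodendrocyte precursors with PDGFRA and OLIG1 keep dividing.

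The libraries held from 112777548 to 182113104 UMIs. Mitotic cells were deeper than other cells on every day, with a median of 13780 to 17517 UMIs against 8935 to 10526.5. A rule that counts detected genes is met more easily at higher depth, and the reason for the difference in depth was not tested. Shares were therefore also taken after every cell had been thinned to 2000 UMIs. Doublet calls were 2.66 to 9.03% of mitotic cells and 3.00 to 4.72% of other cells. Any pair of libraries shared 32 to 54 cell barcodes, and 0 to 3 of those were mitotic in both. D28 A stood apart from D28 B by its fibroblast-type cells, so results on D28 are given with and without it where they rest on it.

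TOP2A, CENPF, UBE2C and BIRC5 marked the mitotic cells far more sharply than NUSAP1. The levels of the 5 genes describe the choice of cells and were not tested. TOP2A was at 885 and 792 CPM in the mitotic cells of D11, 523 and 713 on D28, then 806 and 758 on D45, against 4.10 to 14.6 CPM in other cells. CENPF was at 911 and 764, 399 and 628, and 808 and 783 CPM on the same days, against 2.84 to 16.2 CPM. UBE2C was highest in D28 A, at 591 CPM, and lay between 209 and 317 CPM in the mitotic cells of the other 5 libraries. BIRC5 stayed between 192 and 269 CPM in all of them. NUSAP1 was at 836 to 1080 CPM in mitotic cells, but it was also at 121 to 182 CPM in other cells and had a UMI in 59.9 to 78.5% of them. The annotation places NUSAP1 at chr1:129992797-130065641 on the minus strand. OIP5 lies inside it and NDUFAF1 overlaps its end by 738 bases, both on the plus strand. Only the counts given to each gene were used, and reads over these overlaps were not examined. Between 28.2% and 45.2% of mitotic cells met the rule only by counting NUSAP1.

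**Figure D1:**
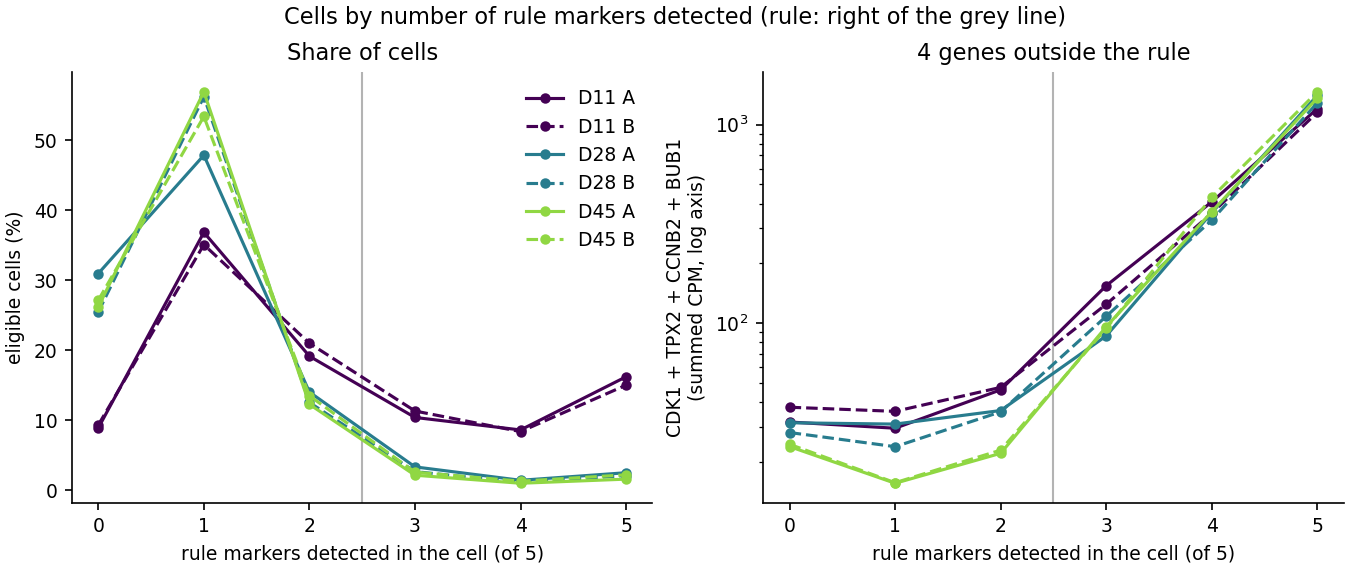
Percent of cells passing the limits on UMIs and genes (left) and summed CPM of CDK1, TPX2, CCNB2 and BUB1 on a log axis (right), by the number of the 5 rule markers detected in a cell, with 1 line a library and the rule to the right of the grey line. From 2 markers on the sum rises at each step in every library, from 22.1 to 47.5 CPM at 2 markers to 1154 to 1463 CPM at 5.

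From 2 markers upwards, cells with more of the markers also had more of the mitotic genes that the rule did not use. CDK1, TPX2, CCNB2 and BUB1 summed to 22.1 to 47.5 CPM in cells with 2 markers, which fell just outside the rule, and to 86.3 to 154 CPM in cells with 3 markers, which fell just inside it. With 4 markers the sum was 330 to 430 CPM, and with 5 it was 1154 to 1463 CPM. Cells with exactly 3 markers were 1354, 1658, 306, 292, 223 and 285 in the 6 libraries, and those with exactly 2 were 2496, 3079, 1294, 1386, 1287 and 1501. Over 42 further G2 and M phase genes, mitotic cells held 5351 to 7989 CPM and other cells 850.5 to 1394 CPM, and over 39 S phase genes they held 2510 to 3492 and 788 to 1446 CPM. KIF20A, a kinesin of cytokinesis, was at 29.2 to 45.8 CPM in mitotic cells and below 1 CPM in other cells of every library.

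The promoters of the marker genes are shown because genes of this phase share 2 short motifs. The motif TTTGAA, the core of the cell cycle genes homology region, and the motif CCAAT were searched on both strands from 250 bases before to 50 bases after each gene start in RefSeq on Sscrofa11.1. These 2 motifs share no bases with each other where both were found in the windows below. TTTGAA was in 3 of 5 rule genes (60%), in 24 of 46 further G2 and M phase genes (52.2%) and in 14% of all 19531 windows. CCAAT was in 4 of 5 (80%), 35 of 46 (76.1%) and 35.4%, and both motifs were in 2 of 5 (40%), 20 of 46 (43.5%) and 5.53%. TOP2A and UBE2C held both motifs, CENPF and NUSAP1 held CCAAT alone and BIRC5 held TTTGAA alone. A match is a description of the letters and not of binding. In the windows of TOP2A (chr12:22001050-22001349, plus strand), UBE2C (chr17:48018153-48018452, plus strand) and CENPF (chr9:129012192-129012491, minus strand), capitals mark both motifs and their reverse complements (TTCAAA, and for the other ATTGG).
TOP2A: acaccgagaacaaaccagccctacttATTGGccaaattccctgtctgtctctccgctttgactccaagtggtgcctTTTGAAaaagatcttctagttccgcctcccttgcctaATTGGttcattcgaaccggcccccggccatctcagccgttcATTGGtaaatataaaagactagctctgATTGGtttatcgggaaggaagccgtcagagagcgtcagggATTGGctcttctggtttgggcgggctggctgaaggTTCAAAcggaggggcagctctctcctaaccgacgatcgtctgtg
UBE2C: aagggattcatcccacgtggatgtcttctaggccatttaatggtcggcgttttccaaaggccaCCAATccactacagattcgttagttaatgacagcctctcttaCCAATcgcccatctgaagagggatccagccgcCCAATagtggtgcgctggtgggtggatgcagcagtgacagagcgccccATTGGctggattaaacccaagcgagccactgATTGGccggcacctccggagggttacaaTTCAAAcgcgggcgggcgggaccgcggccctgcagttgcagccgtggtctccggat
CENPF: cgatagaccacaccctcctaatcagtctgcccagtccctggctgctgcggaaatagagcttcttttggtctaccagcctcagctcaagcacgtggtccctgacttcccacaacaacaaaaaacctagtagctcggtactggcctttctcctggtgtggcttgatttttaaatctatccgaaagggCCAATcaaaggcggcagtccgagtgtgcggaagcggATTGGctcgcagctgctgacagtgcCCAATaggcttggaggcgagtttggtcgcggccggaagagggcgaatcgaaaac

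The share of mitotic cells was high on D11 and low on D28 and D45. It was 35.2 and 34.7% of cells in D11 A and B, 7.19 and 5.79% on D28, then 4.65 and 6.01% on D45. The D28 and D45 libraries overlapped, and both lay below the D11 libraries by more than the spread between duplicates. Mean shares were 34.9% ± 0.362 (SD, n = 2) on D11, 6.49% ± 0.987 on D28 and 5.33% ± 0.955 on D45. After thinning they were 16.2 and 14.7%, 2.41 and 2.11%, and 1.85 and 2.34%, so that the D11 mean was 6.83 times the D28 mean and 7.38 times the D45 mean. An exact permutation test over the 3 days gave p = 0.133 before and after thinning, in a design whose smallest possible p is 0.0667. Without NUSAP1, with 3 of the 4 other markers required, the mean shares were 24.6, 3.57 and 3.03%.

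**Figure D2:**
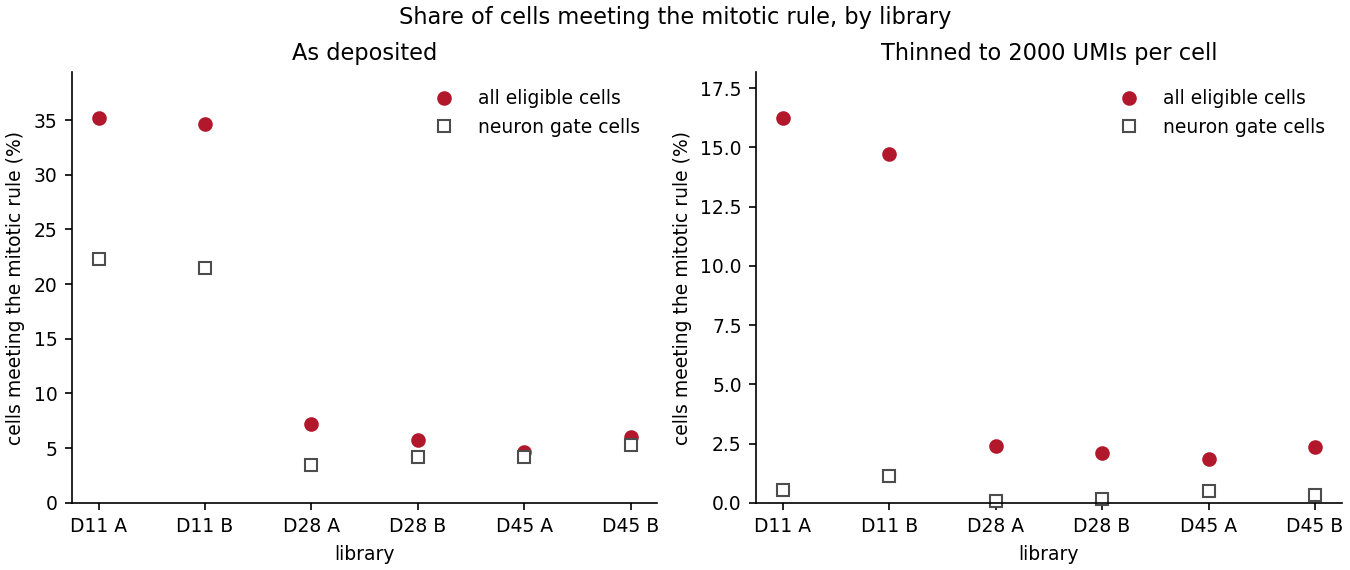
Percent of cells that met the mitotic rule, by library, as deposited (left) and after thinning to 2000 UMIs (right), with filled circles for all cells and open squares for cells with 3 of 5 neuronal genes. In both panels the D11 libraries lie above those of D28 and D45, and thinned neuronal cells lie at or below 1.13%.

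The rule was also met by neuronal cells. Cells with at least 3 of STMN2, DCX, ELAVL3, MAPT and SNAP25 met the rule in 22.3 and 21.5% of cases on D11, 3.50 and 4.19% on D28, then 4.21 and 5.26% on D45. The values on D45 were close to those of all cells of these libraries. After thinning they met it in 0.554 and 1.13%, 0.0711 and 0.152%, and 0.481 and 0.345%, below the thinned share of all cells in each library. At the deposited depth, neuron-gated mitotic cells held 5308 to 6583 CPM of the 42 G2 and M phase genes. Neuron-gated cells outside the rule held 831 to 1158 CPM. The rule chose the cells by mitotic markers, so this difference follows from the choice and was not tested. Doublets and free RNA as sources of these mixed cells were not tested beyond the doublet calls given above.

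Cell type genes were read from 10 sets of 3 or 5 genes (gates). A thinned cell passed a gate with UMIs of 3 of 5 or 2 of 3 of its genes, and SOX2 of the radial glia gate could not be matched. At this depth 55.7 to 72.7% of mitotic cells passed no gate, and 0 to 2 cells per library passed 3, so the shares are low counts of clearly marked cells. Over the 6 libraries, mitotic cells passed the radial glia gate more often in 6 of 6 and the neuron gate less often in 6 of 6, each with p = 0.0312 (exact paired permutation test, two-sided), the smallest this design allows, and an adjusted p of 0.078. The radial glia gate held only 3, 6 and 4 mitotic cells in D28 A, D45 A and D45 B. In D45 B it took 0.598% of mitotic and 0.535% of other cells, so its direction there rests on few cells. None of the 10 gates passed 0.05 after adjustment. The DLX and GABA gates were passed less often by mitotic cells in 6 of 6, with the same permutation p of 0.0312 (adjusted p = 0.078). They held only 0 to 4 and 0 to 7 mitotic cells a library. In D11 A, D11 B and D28 A they held no mitotic cell and 1 to 4 and 3 to 9 other cells, too few to read a direction there. The diencephalic-type gate had p = 0.0625 (permutation, adjusted p = 0.125), the astrocyte and fibroblast gates 0.125 (adjusted p = 0.179), the oligodendrocyte precursor and ciliated gates 0.25 (adjusted p = 0.278) and the floor plate gate 0.375. The mean difference in the fibroblast gate was 4.99 percentage points over the 6 libraries and 1.56 without D28 A.

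**Figure D3:**
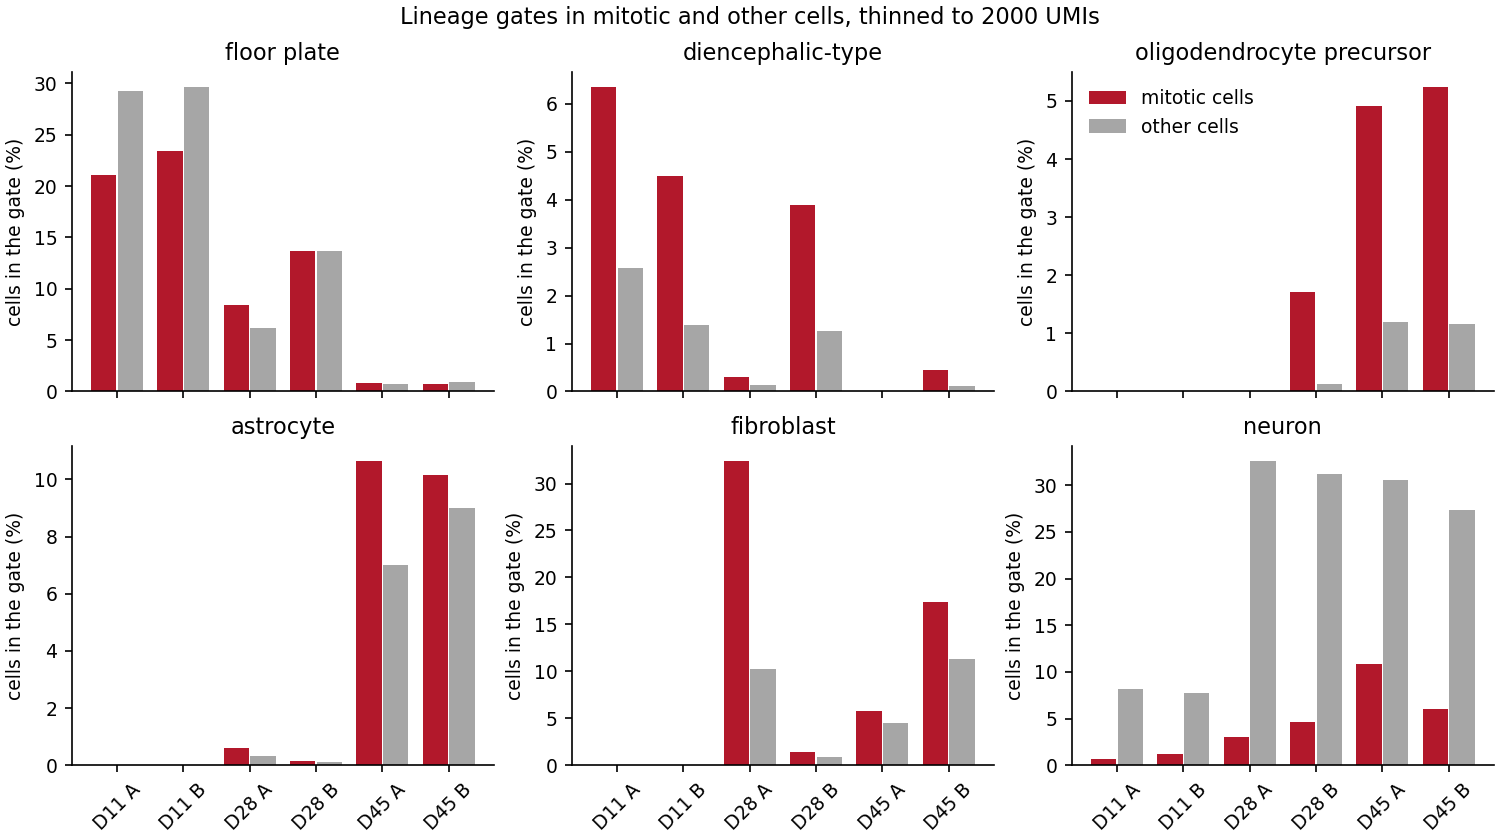
Percent of mitotic cells (red bars) and of other cells (grey bars) that passed 6 of the 10 gates after thinning to 2000 UMIs, by library. Among mitotic cells, those of the floor plate gate are most frequent on D11, of the fibroblast gate in D28 A, and of the astrocyte and oligodendrocyte precursor gates on D45, and each panel has its own axis.

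On D11 both floor plate and diencephalic-type cells were found among the mitotic cells. The floor plate gate (CORIN, SPON1, NTN1, FOXA1, SHH) took 21.1 and 23.5% of mitotic cells and 29.2 and 29.6% of other cells. The diencephalic-type gate (WNT8B, DBX1, EMX2) took 6.34 and 4.50% of mitotic cells and 2.58 and 1.40% of other cells. Read the other way, 11.2 and 11.3% of thinned floor plate cells met the mitotic rule, against 27.9 and 28.1% of thinned diencephalic-type cells. Both D11 libraries showed this order.

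Genes were compared between mitotic and other cells on counts summed per library and class, with edgeR's quasi-likelihood test and Benjamini-Hochberg adjustment over 21682 genes, and this is the test behind every adjusted p below. In such sums, fewer cells of a type and less RNA per cell cannot be told apart. On D11, 14.7% of all genes tested were higher in mitotic cells and 15.2% were lower, 6484 in all, which became 2432 without D11 A and 2678 without D11 B. Of 17 forebrain and diencephalic regulators tested, 9 were higher and 1 was lower, with a median log2 fold change of 1.20 against -0.02 over all genes. Fewer of them were higher without D11 A or without D11 B. Of 18 floor plate and midbrain regulators, 4 were higher and 11 lower, with a median of -0.36, which became 1 and 5 without D11 A and 1 and 8 without D11 B. 

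WNT8B, a WNT ligand of the dorsal forebrain, was at 98.7 and 65.7 CPM in mitotic cells and 39.4 and 18.2 CPM in other cells of D11 A and B, a log2 fold change of 1.60 ± 0.186 (SE; adjusted p = 0.000398). DBX1, a homeobox gene of ventricular zone progenitors, was at 65.0 and 59.8 against 23.8 and 14.7 CPM (1.75 ± 0.167, adjusted p = 0.000132). NKX2-1, which marks the hypothalamic primordium, was at 76.6 and 45.7 against 31.0 and 15.4 CPM (1.44 ± 0.127, adjusted p = 8.08e-05). None of these 3 overlapped between classes. SIX3 and LHX2, regulators of the anterior neural plate, were higher by 1.69 and 1.98, and EMX2, a forebrain homeobox gene, by 1.65. Among midbrain genes, OTX2, which sets forebrain and midbrain identity, was higher in mitotic cells by 0.74 ± 0.12 (76.2 and 61.4 against 46.5 and 36.6 CPM). LMX1A, which directs the dopaminergic lineage, was lower by 1.11 on the log2 scale (48.8 and 61.8 against 116 and 123 CPM, adjusted p = 0.00456). CORIN, SPON1, NTN1, FOXA1 and FOXA2 were lower by smaller amounts, with log2 fold changes of -0.27 to -0.41, but without D11 A none of these 5 was past the threshold (adjusted p up to 0.379), and without D11 B only NTN1 and FOXA1 were.

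Of 20 mitogen receptors and signalling targets, 7 were higher in the mitotic cells of D11, 1 (EGFR) was lower and 12 were not past the threshold, with 4 higher without D11 A or without D11 B. SP5, a direct WNT target, was at 11.3 and 13.3 CPM against 3.22 and 2.55 (2.11 ± 0.231, adjusted p = 0.000281), and LEF1, the WNT pathway's DNA-binding partner, at 66.6 and 45.5 against 29.9 and 14.8 (1.39 ± 0.114). FGF19, a secreted FGF, was at 50.8 and 60.4 CPM against 25.4 and 28.3 (1.06 ± 0.146). NES, which encodes the progenitor filament nestin, went the other way, with 455 and 509 CPM in mitotic and 668 and 731 CPM in other cells (-0.53 ± 0.0697, adjusted p = 0.000767). The symbol PMCH, a neuropeptide of the lateral hypothalamus, was at 118 and 111 against 54.1 and 52.8 CPM, and C1QA, a complement subunit, at 19.2 and 31.1 against 78.5 and 111 CPM, while 5 microglia and blood cell genes (AIF1, CSF1R, PTPRC, CX3CR1, ITGAM) summed to 7.25 to 7.91 CPM on that day.

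On D28 the 2 libraries differed in the lineages of their mitotic cells. In D28 A, 32.4% of mitotic cells passed the fibroblast gate (COL1A1, COL1A2, COL3A1, LUM, DCN) against 10.2% of other cells, while in D28 B it was 1.40 against 0.873%. The oligodendrocyte precursor gate (OLIG1, OLIG2, SOX10, PDGFRA, CSPG4) took 0 of 664 mitotic cells in D28 A and 11 of 641 (1.72%) in D28 B, where 0.134% of other cells passed it. A count of 0 of 664 allows a share of up to 0.452%, and the 95% Clopper-Pearson interval in D28 B was 0.86 to 3.05%, both for counting error only. The floor plate gate took 8.43 and 13.7% of mitotic cells and 6.17 and 13.6% of other cells, and the diencephalic-type gate 0.301 and 3.90% against 0.128 and 1.26%.

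In the gene test on D28, 17% of all genes were higher in mitotic cells and 15.3% were lower. Of 11 radial glia genes 9 were higher and 1 lower (median 1.23 against -0.05 over all genes), of 13 Notch pathway genes 9 were higher and none lower (median 0.67), and of 20 mitogen receptors and signalling targets 17 were higher and none lower (median 1.02). All 5 genes of the oligodendrocyte precursor gate were higher.

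OLIG1, a helix-loop-helix factor of the oligodendrocyte lineage, was at 6.02 CPM in the mitotic cells of D28 A and 123 CPM in those of D28 B, against 0.706 and 9.66 CPM in other cells (3.67 ± 0.175, adjusted p = 2.19e-06). PDGFRA, the PDGF receptor of these precursors and also of fibroblasts, was at 36.6 and 53.0 against 12.3 and 5.39 CPM (2.55 ± 0.342, adjusted p = 0.000781). Without D28 A the values of OLIG1 and PDGFRA were 3.78 and 3.40, and without D28 B 3.18 and 1.67. COL1A1, a fibrillar collagen, was at 463 and 46.0 against 178 and 32.3 CPM (1.10 ± 0.171, adjusted p = 0.00167), and its value was 0.61 without D28 A and 0.56 (adjusted p = 0.0649) without the cells of the fibroblast gate.

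VIM, the intermediate filament of radial glia and mesenchyme, was at 6385 and 6194 CPM in mitotic and 3379 and 3609 CPM in other cells (0.97 ± 0.0679, adjusted p = 2.13e-05). The Notch target HEY1 (36.4 and 52.2 against 16.3 and 26.4 CPM, 1.19 ± 0.133) and the Notch modifier LFNG (60.0 and 52.3 against 34.0 and 23.7 CPM, 1.10 ± 0.131) were higher with no overlap between classes. DUSP6, a phosphatase induced by FGF and ERK signalling, was at 14.2 and 24.4 against 7.33 and 10.8 CPM (1.20 ± 0.109), and PTCH1, a receptor and target of hedgehog signalling, at 188 and 156 against 85.6 and 66.6 CPM (1.31 ± 0.0653). Of the 17 forebrain and diencephalic regulators, 7 were higher in mitotic cells and 1, DLX5, was lower, with WNT8B at 1.35 ± 0.216, DBX1 at 1.64 ± 0.204 and LHX2 at 1.77 ± 0.127, while NKX2-1 stood at -0.20 ± 0.146 (adjusted p = 0.359). Against other cells without the neuron gate, VIM was at 0.31, HEY1 at 0.76 and LFNG at 0.63, all still past the threshold.

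On D45 astrocyte and oligodendrocyte precursor genes were found in a larger share of mitotic cells than in any library of D11 or D28, a difference that was not tested. The astrocyte gate (AQP4, GFAP, SLC1A3, GJA1, SPARCL1) took 10.6 and 10.2% of mitotic cells and 6.99 and 9.01% of other cells. The oligodendrocyte precursor gate took 4.91 and 5.23% of mitotic cells and 1.19 and 1.16% of other cells, and 8.39 and 9.62% of thinned cells in that gate met the mitotic rule, against 1.20 and 1.19% of thinned astrocyte gate cells. Floor plate gate cells were down to 0.818 and 0.747% of mitotic cells. The fibroblast gate took 5.73 and 17.3% of mitotic cells against 4.49 and 11.3% of other cells. These gate shares were taken after thinning. At the deposited depth the floor plate gate took 9.20 and 16.6% of mitotic and 6.24 and 13.1% of other cells on D45. On D11 it took 49.1 and 61.6% of mitotic cells at that depth. The oligodendrocyte precursor gate took 27.2 and 25.0% of the D45 mitotic cells at the deposited depth.

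Precursor and myelin genes of the oligodendrocyte lineage went opposite ways on D45. In the gene test 18.7% of all genes were higher in mitotic cells and 13.3% were lower, 6931 in all, which became 2890 without D45 A and 4120 without D45 B. Of 10 oligodendrocyte lineage genes 5 were higher and 4 lower, with 2 higher without D45 A or without D45 B. OLIG1 was at 247 and 195 CPM in mitotic and 72.3 and 59.8 CPM in other cells (1.90 ± 0.13, adjusted p = 2.03e-05). OLIG2, its partner factor, was at 13.3 and 19.8 against 4.16 and 6.61 CPM (1.79 ± 0.144, adjusted p = 5.21e-05). PDGFRA was at 157 and 153 against 59.8 and 73.8 CPM (1.38 ± 0.301, adjusted p = 0.00886), a call that ended without D45 A or D45 B (adjusted p up to 0.197) and against other cells without the neuron gate (0.47, adjusted p = 0.383). MBP, the myelin basic protein gene, was at 95.6 and 32.7 CPM in mitotic and 422 and 299 CPM in other cells (-2.48 ± 0.21, adjusted p = 6.73e-05). MAG, a myelin glycoprotein, was at 19.6 and 3.83 against 99.0 and 73.9 CPM (-2.92 ± 0.391). BCAS1, expressed by newly formed oligodendrocytes, lay between them at 131 and 89.2 against 345 and 279 CPM (-1.36 ± 0.151). None of these genes overlapped between classes. SOX10, which spans the lineage, did not overlap either but was not past the threshold, at 71.0 and 71.3 against 66.4 and 55.2 CPM (adjusted p = 0.0791).

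**Figure D4:**
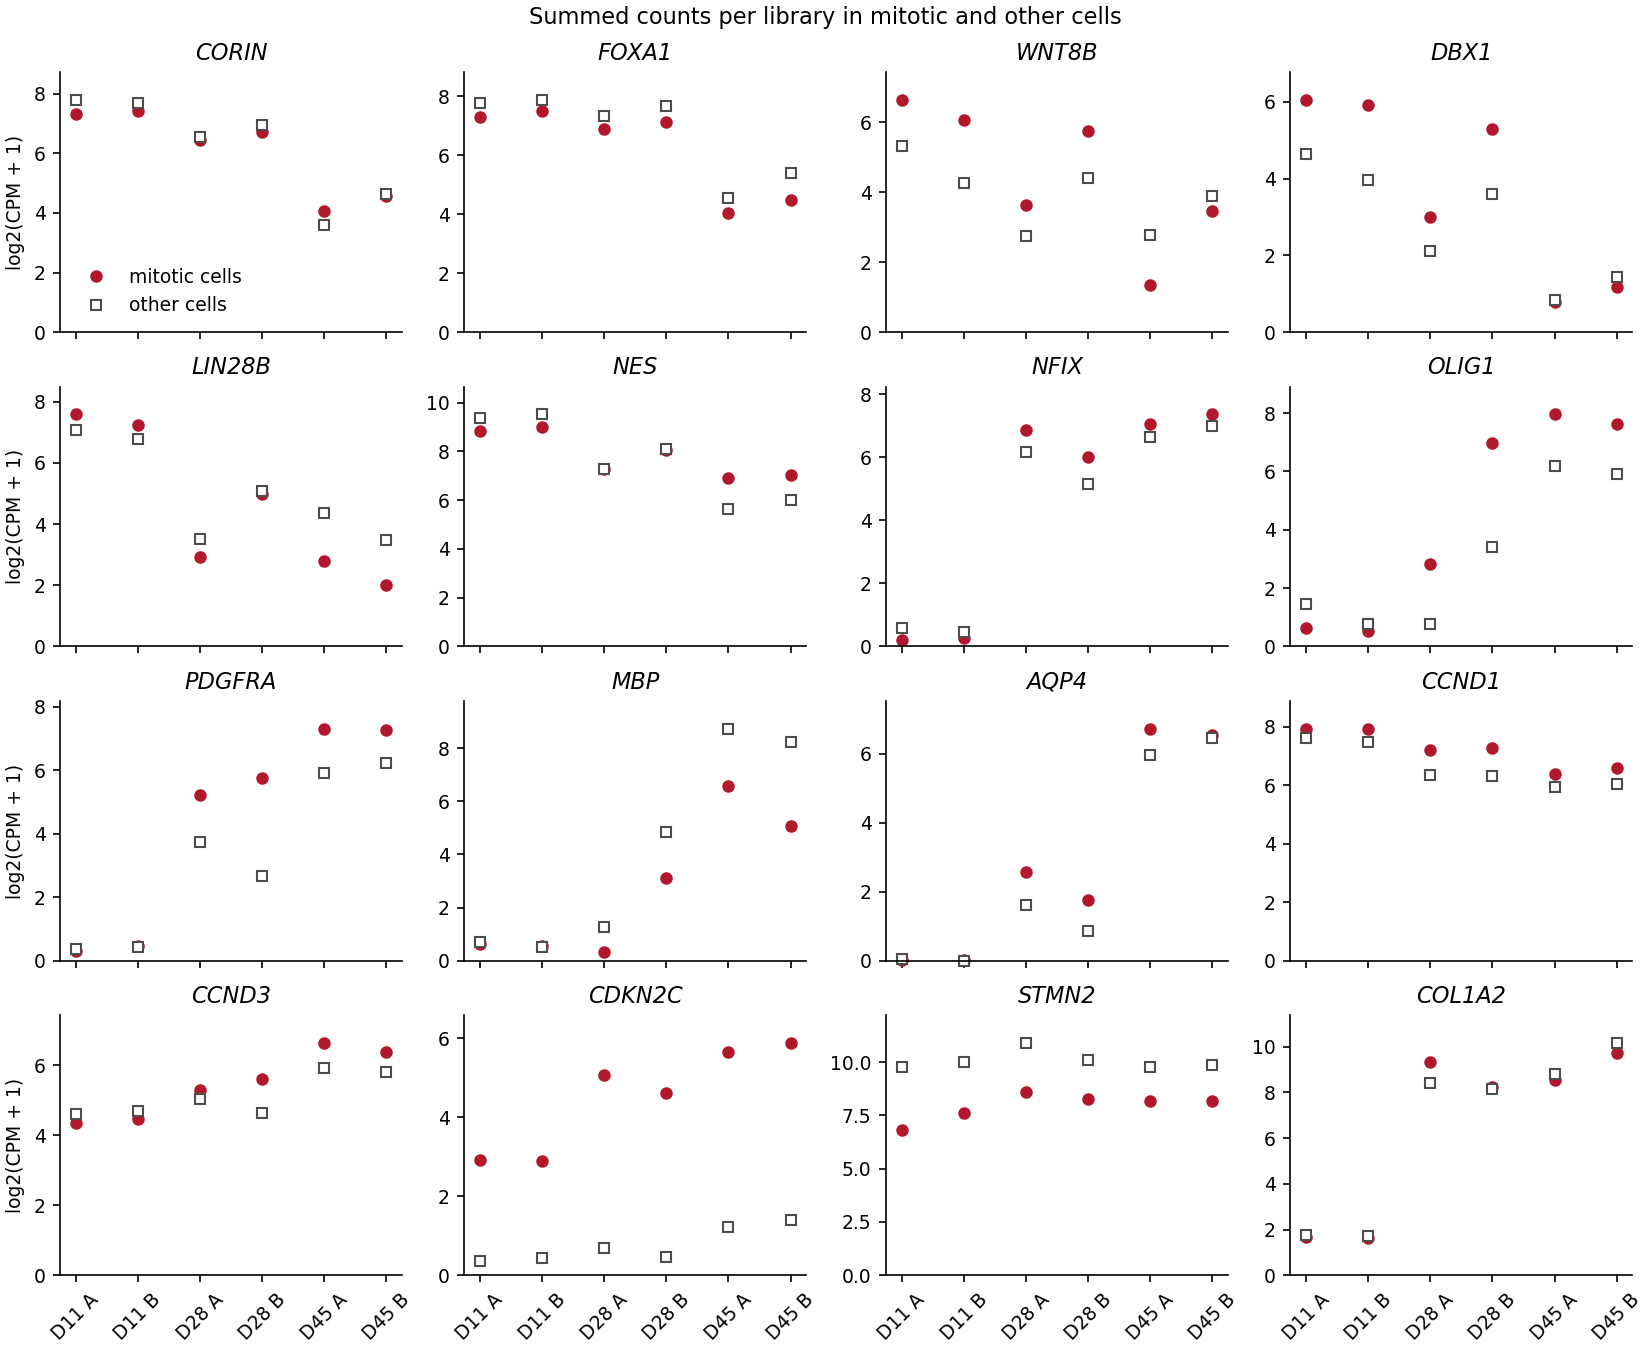
Level of 16 genes as log2(CPM + 1) by library, in mitotic cells (red circles) and other cells (open squares), each panel on its own axis. OLIG1 is higher and MBP lower in the mitotic cells of both D45 libraries, WNT8B and DBX1 are higher in mitotic cells on D11 and D28, and CORIN and FOXA1 are lowest on D45 in both classes.

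Of 11 radial glia genes, 10 were higher and none lower in the mitotic cells of D45 (median 0.87 against -0.01 over all genes), which became 2 without D45 A and 7 without D45 B. VIM was at 7743 and 8155 against 4260 and 5566 CPM (0.87 ± 0.0679, adjusted p = 4.36e-05) and NES at 118 and 130 against 48.6 and 63.7 CPM (1.32 ± 0.0734, adjusted p = 5.39e-06). Against other cells without the neuron gate they kept 0.26 and 0.84, both past the threshold. Among 9 astrocyte genes, AQP4, SLC1A3 and APOE were higher by 0.58, 0.62 and 0.48 and none was lower, but thinned to 2000 UMIs these values were 0.00, -0.27 and -0.14, and AQP4 stood at 0.23 without D45 A (adjusted p = 0.514). Without D45 A none of the 3 was past the threshold, with SLC1A3 at 0.51 (adjusted p = 0.168) and APOE at 0.31 (adjusted p = 0.211), and without D45 B SLC1A3 was not (adjusted p = 0.0659). Of 13 Notch genes 8 were higher and none lower (median 0.66), which became 1 without D45 A. LFNG kept its call without each library (73.0 and 71.5 against 35.2 and 48.3 CPM, 0.96 ± 0.13, adjusted p = 0.000805). Of 17 forebrain and diencephalic regulators only LHX2 and TCF7L2 were higher (0 without D45 A) and 5 were lower (3 without D45 A and 2 without D45 B), SIX3 among them with 35.4 and 26.0 CPM in mitotic and 69.3 and 51.1 CPM in other cells (-0.81 ± 0.111, adjusted p = 0.000865), though against other cells without the neuron gate it stood at 0.50.

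The difference between mitotic and other cells changed with day for part of these genes. In the test of that difference, D45 against D11, 9.93% of all genes were higher and 3.89% lower, and D28 against D11 gave 5.73 and 2.71%. The first pair of shares stood for 2997 genes, which ranged from 605 without D45 A to 5569 without D28 A, with 962 and 1065 without D11 A or B, 5279 without D28 B and 1582 without D45 B. The second pair stood for 1830 genes, with 532 and 694 without D11 A or B, 3697 without D28 B and 1116 and 1135 without D45 A or B. For 379 of 21682 genes tested the difference passed the threshold on both days in opposite directions and so did its change. Of them 260 were higher and 119 lower in the mitotic cells of D45. This count was not repeated with a library left out. NES went from -0.53 to 1.32, OLIG1 from -1.23 to 1.90 and SIX3 from 1.69 to -0.81 between D11 and D45. Against other cells without the neuron gate SIX3 stood at 0.50 on D45, so its direction there depends on the neurons among other cells. The D11 value of OLIG1 rests on 37 and 32 UMIs in the mitotic cells of D11 A and B (0.565 and 0.444 CPM), and was -0.71 without D11 A (adjusted p = 0.184) and -1.68 without D11 B. VIM did not differ beyond its error on D11 (-0.03 ± 0.0672) and did on D45. Of the forebrain and diencephalic list 8 of 17 had a lower value on D45 than on D11 and 1 a higher one (5 lower without D45 B, and 0 higher without D11 A, D11 B or D45 A), and WNT8B (change of -2.26 ± 0.335) and NKX2-1 (-1.62 ± 0.188) were among them. On D28 against D11, 9 of 20 mitogen genes and 4 of 13 Notch genes had a higher value and none a lower one, and the 4 were 2 without D11 A and 9 without D28 A.

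Neuronal genes were lower in mitotic than in other cells on each day, but at the deposited depth many mitotic cells passed the neuron gate. At the deposited depth 8.81 and 8.18% of mitotic cells passed the neuron gate on D11, 26.1 and 40.2% on D28, then 60.9 and 51.9% on D45, against 15.9 to 67.6% of other cells. Thinned to 2000 UMIs, 0.654 and 1.22%, 3.01 and 4.68%, and 10.8 and 5.98% did. Such thinned cells were more frequent at the edge of the rule. They were 1.40 to 17.9% of the cells with exactly 3 rule markers in a library, and 0.284 to 4.27% of those with 5. All 10 neuron genes were lower on D11 and D28 and 7 of 10 on D45 (medians of -1.87, -1.79 and -1.02), and none was higher. STMN2, a microtubule regulator of growing axons, was at 112 and 197 CPM in the mitotic cells of D11, 389 and 310 on D28 and 291 on both D45 libraries, against 877 and 1031, 1889 and 1112, and 858 and 934 CPM in other cells. The log2 fold changes were -2.67, -1.94 and -1.46. STMN2 turned to 1.66, 1.13 and 1.19 when neuron-gated cells were taken from the other cells but kept among the mitotic cells. SST, the somatostatin gene of interneurons, was at 1.48 to 6.96 CPM in mitotic and 10.9 to 87.3 CPM in other cells. Of 8 proneural and delamination genes tested 6 were lower on D11 and 3 on D28, where 15.2 and 15.3% of all genes were, and the 1 lower on D45 was near the 13.3% of all genes.

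The regulators of the G1 phase were in part shared by all 3 days and in part not. CDKN2C, which encodes the CDK4 and CDK6 inhibitor p18, was at 6.55 and 6.45 CPM in the mitotic cells of D11, 32.7 and 23.3 on D28, then 49.6 and 57.6 on D45, and at 0.275 to 1.64 CPM in other cells (4.35 ± 0.156, 5.94 ± 0.15 and 5.34 ± 0.132). E2F1, a transcription factor of S phase entry, was at 25.1 to 41.5 CPM in mitotic cells throughout, while it stood in other cells at 11.0 and 9.84 CPM on D11 and at 1.38 and 1.94 on D45. CDKN1C, which encodes the exit inhibitor p57, was lower in mitotic cells on every day, with 255 and 283 against 389 and 355 CPM on D11, 62.1 and 84.6 against 140 and 192 on D28, and 107 and 71.3 against 198 and 175 on D45. Its values of -1.05 ± 0.108 on D28 and -0.92 ± 0.108 on D45 held without each library, and that of -0.46 on D11 did not hold without D11 A (adjusted p = 0.158). CDK6 was higher in mitotic cells by 1.07 ± 0.0735 on D11 and 1.00 ± 0.0737 on D45.

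Mitotic cells were next compared with each other between days, over 15655 genes. From D11 to D28, 7.74% of all genes were higher and 3.78% lower, from D28 to D45 1.14% and 0.907%, and from D11 to D45 14.2% and 7.88%. The libraries moved these counts of called genes, which were 1804 for D28 against D11, 320 for D45 against D28 and 3457 for D45 against D11. Leaving out a library also leaves fewer libraries for the pooled spread. A count can therefore fall with little change in the fold changes, also when the library belongs to neither day compared. The first was 79 and 77 without D11 A or B, 3423 and 8011 without D28 A or B and 626 and 613 without D45 A or B. The second was 0 without D11 A, D11 B, D45 A or D45 B, with 1955 to 2630 genes at an unadjusted p under 0.05, and 1993 and 7375 without D28 A or B. The last was 503 and 469, 7636 and 7722, and 1028 and 1027 without these pairs in turn.

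Floor plate and midbrain regulators fell in the mitotic cells. From D11 to D45, 15 of 18 were lower and none higher, with a median of -2.56 against 0.01 over all genes, while from D11 to D28 6 and from D28 to D45 9 were lower. The count of 15 stands against 7.88% of all genes lower, and became 9 without D11 A, 7 without D11 B, 9 without D45 A and 13 without D45 B. SHH (adjusted p up to 0.0762) and EN1 (up to 0.0991) lost the call without D11 A, D11 B or D45 A, and LMX1A (0.0546) without D11 B. The count of 6 was 1 and 0 without D11 A or B and 2 without D45 A or without D45 B. FOXA2, which specifies the floor plate, was at 78.3 and 93.2 CPM on D11, 17.5 and 24.5 on D28, then 5.35 and 5.56 on D45 (-4.13 ± 0.214, D45 against D11, adjusted p = 0.000717). FOXA1, its homologue, was at 158 and 180, 117 and 138, and 15.3 and 21.4 CPM (-3.35 ± 0.247, adjusted p = 0.00117). CORIN, a serine protease of the floor plate surface, was at 159 and 169, 86.5 and 105, and 15.6 and 22.8 CPM (-3.24 ± 0.25). SPON1, an extracellular floor plate protein, was at 958 and 824, 274 and 552, and 95.2 and 86.9 CPM (-3.44 ± 0.314). These 4 genes showed no overlap between D11 and D45 and kept their calls without each library. The step from D28 to D45 was less firm. With each library left out in turn, its log2 fold change was -2.14 to -1.86 for FOXA2 and -3.16 to -2.6 for FOXA1. It was -2.72 to -2.1 for CORIN and -2.57 to -1.78 for SPON1. D11 enters the test of this step only through the pooled spread. The calls of the 9 regulators lower there did not hold without D11 A, D11 B, D45 A or D45 B, those of FOXA2, FOXA1, CORIN and SPON1 among them. Genes of other lists followed in that step lost their calls in the same way. In other cells FOXA2 was at 99.1 and 108 CPM on D11 and 4.97 and 4.53 on D45.

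Genes of developmental timing changed in the mitotic cells as well. Of 11 tested, 5 were higher and 4 lower on D45 than on D11, against 14.2% higher and 7.88% lower over all genes. The 5 became 2 without D11 A, D11 B, D45 A or D45 B, and the 4 became 1, 1, 2 and 1. LIN28B, an RNA-binding protein of early progenitors, was at 190 and 148 CPM on D11, 6.51 and 30.2 on D28, then 5.94 and 3.01 on D45 (-5.42 ± 0.724, adjusted p = 0.00546), a call that ended without D45 B (adjusted p = 0.0592). NFIX, a nuclear factor of later progenitors, was at 0.153 and 0.208 CPM on D11, 115 and 63.5 on D28, then 134 and 164 on D45 (9.50 ± 0.555, adjusted p = 0.00078). NFIB, of the same family, was at 23.5 and 19.1, 148 and 285, and 405 and 393 CPM (4.07 ± 0.301, adjusted p = 0.00117). For NFIX and NFIB the D11 libraries lay below all later ones, and for LIN28B they lay above. Summed over the 11 genes, mitotic cells went from a mean of 1563 CPM on D11 to 2494 on D45, and other cells from 1441 to 2208 CPM.

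Glial genes rose over the same interval. All 10 oligodendrocyte lineage genes were higher on D45 than on D11 (median 6.24), and 7 of 9 astrocyte genes and 7 of 11 radial glia genes were higher, with 0 and 2 lower, where 14.2% of all genes were higher and 7.88% lower. The counts of higher genes moved with the library left out. Without D11 A or without D11 B they were 1, 4 and 2, without D45 A 6, 5 and 3, and without D45 B 6, 7 and 3. OLIG1 lost its call without D11 A, D11 B, D45 A or D45 B (adjusted p up to 0.0967), MBP without D11 A, D11 B or D45 A (up to 0.118) and SOX10 without D11 A or D11 B (up to 0.0586). PDGFRA was at 0.229 and 0.388 CPM on D11, 36.6 and 53.0 on D28, then 157 and 153 on D45 (8.78 ± 0.332, adjusted p = 0.000507). GFAP, the astrocyte filament gene, was at 0.748 and 0.873, 13.3 and 8.10, and 103 and 93.3 CPM (6.75 ± 0.385). SLC1A3, a glutamate transporter of radial glia and astrocytes, was at 16.7 and 11.6, 179 and 234, and 334 and 276 CPM (4.28 ± 0.252). TNC, an extracellular matrix protein of late radial glia, was at 22.0 and 15.1, 39.9 and 46.4, and 185 and 180 CPM (3.15 ± 0.219). The calls of these 4 genes from D11 to D45 held without each library. In other cells of D45, GFAP was at 90.7 and 110 CPM.

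Some signalling genes of the mitotic cells fell from D11 to D45. ETV4 and DUSP6, both targets of FGF signalling, were at 47.4 and 43.3 and at 88.7 and 96.0 CPM on D11, and at 7.13 and 6.37 and at 9.27 and 6.92 CPM on D45 (-2.90 ± 0.173 and -3.68 ± 0.258). JAG1, a Notch ligand, was at 62.3 and 57.4, 16.0 and 21.4, and 14.6 and 13.8 CPM (-2.23 ± 0.163). Of 13 Notch genes 5 were lower and 1 higher on D45 than on D11, and of 20 mitogen genes 5 were lower and 3 higher, against 7.88% lower and 14.2% higher over all genes, so the shares that were higher lie near or below that of all genes. Without D11 A the lower counts were 2 and 2, without D11 B 1 and 2, without D45 A 3 and 2 and without D45 B 1 and 3. Summed, the 13 Notch genes went from a mean of 529.4 CPM on D11 to 403.0 on D45 in mitotic cells and from 516.5 to 281.5 in other cells. The 20 mitogen genes went from 1035 to 1175 and from 875.2 to 994.5 CPM. CCND3, a D-type cyclin, rose from 19.5 and 21.1 to 38.3 and 47.7 and then 98.2 and 82.0 CPM (1.99 ± 0.163, adjusted p = 0.00145), while CCND1 stood at 242 and 241, 145 and 154, and 83.3 and 94.7 CPM (-1.59 ± 0.185), with adjusted p up to 0.0562 without a D11 library.

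The largest rises by the rule for named genes from D11 to D45 were AQP4, C20orf85, COL6A3, CCNO, BCAN, NFIX, GPR37L1, PDGFRA, OLIG1 and COL3A1, and the largest falls were HLA-DRA, C1QA, A2M, GREB1, MMRN1, PMCH, SLA-DQB1, SLC5A7, FGF19 and DBX1. Of those followed with each library left out, BCAN and FGF19 lost the call without D11 A or D11 B, DBX1 without D45 A or D45 B, and OLIG1 without any of these. The value of FGF19 ranged from -13.9 to -5.29. A2M, a protease inhibitor, was at 82.0 and 94.8 CPM on D11, 6.59 and 5.14 on D28, then 0.238 and 0.911 on D45. COL1A2 was at 2.18 and 2.07 CPM on D11, 637 and 299 on D28, then 376 and 838 on D45 (8.02 ± 0.733), and without fibroblast gate cells the change was 7.01. SCG2, a granin of secretory vesicles, was at 1.86 and 3.65, 501 and 705, and 653 and 821 CPM (7.90 ± 0.478). CCL2 and PENK were among the 10 largest rises from D11 to D28 and were highest in D28 A. PENK, an opioid peptide precursor, was at 607 CPM there and 28.6 CPM in D28 B, a log2 fold change from D11 of 10.78 that was 7.07 without D28 A, and CCL2, a chemokine, was at 95.1 and 2.17 CPM. Both lost the call without D11 A, D11 B, D45 A or D45 B, with adjusted p up to 0.182 for PENK and 0.24 for CCL2. From D28 to D45 the largest falls included CMTM8, from 433 and 323 to 15.1 and 15.3 CPM, and ISG15, an interferon-induced gene, from 220 and 290 to 20.1 and 42.4 CPM.

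A small group of D45 cells met the rule with genes of multiciliated cells, which amplify centrioles without dividing. CCNO, MCIDAS, CDC20B, C20orf85, DNAI1, CCNA1 and DNAH12 were among the 10 largest rises from D28 to D45. Cells were then counted that held at least 2 of MCIDAS, CCNO and CDC20B, the centriole amplification regulators, a choice made after these values were seen and left without a test. They were 21 of 489 mitotic cells (4.29%) in D45 A and 13 of 669 (1.94%) in D45 B, against 0.25 and 0.21% of other cells, and at most 1 mitotic cell of any earlier library. None of the 34 was called a doublet, and their median was 24078 and 27843 UMIs. FOXJ1, the master regulator of motile cilia, had a UMI in 100% of them and was at 1376 and 1398 CPM, against 8.14 and 8.38 CPM in the remaining mitotic cells. CCNA1 was at 638 and 720 against 8.27 and 3.39 CPM. CENPF was at 41.6 and 33.6 against 862 and 808 CPM, and the S phase genes at 1307 and 1017 against 2834 and 2560 CPM. Their 42 G2 and M phase genes summed to 4906 and 4410 CPM, against 6670 and 6854 CPM. Single mitotic genes went both ways, with CDK1 at 181 and 165 against 138 and 149 CPM and CDC20 at 378 and 317 against 146 and 172. CCNB1 was at 75.9 and 75.7 against 102 and 134 CPM.

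**Figure D5:**
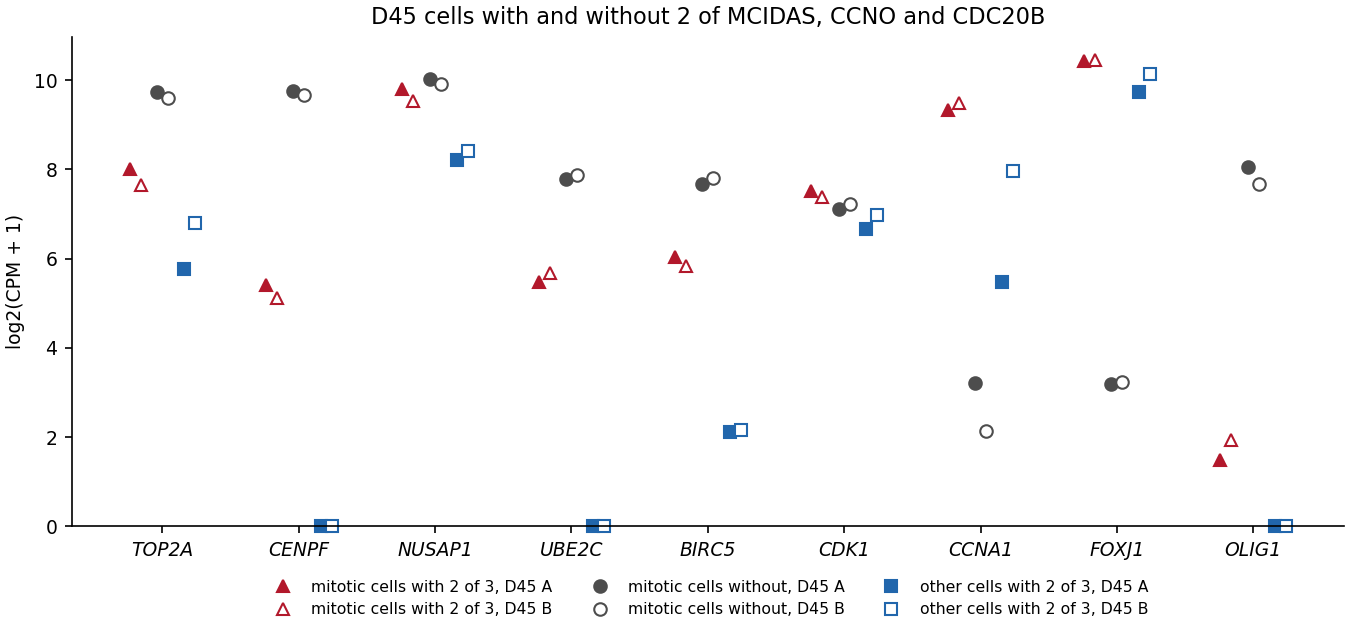
Level of 9 genes as log2(CPM + 1) in D45 mitotic cells with at least 2 of MCIDAS, CCNO and CDC20B (triangles, 21 and 13 cells), in the remaining mitotic cells (circles) and in other cells with 2 of these genes (squares), with filled symbols for D45 A and open ones for D45 B. FOXJ1, CCNA1 and, by less, CDK1 are higher and CENPF, TOP2A and OLIG1 lower in the triangles than in the circles.

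Over all mitotic cells FOXJ1 was at 98.1 and 53.5 CPM on D45 and 12.1 and 9.42 CPM in other cells (2.93 ± 0.147, adjusted p = 2.68e-06), and at 5.04 to 13.3 CPM in the mitotic cells of earlier days. In thinned cells the value was 0.64 (adjusted p = 0.419). TEKT1, a tektin of the axoneme, was at 24.0 and 16.2 against 9.26 and 4.94 CPM (1.70 ± 0.126).

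Genes of some further cell types, and hindbrain regulators, were low. Pluripotency genes (3 of 5 matched) summed to at most 0.273 CPM in mitotic cells, choroid plexus genes to 1.31 to 7.98 CPM, and endothelial genes to 16.2 to 42.2 CPM. Microglia and blood cell genes reached 43.1 CPM, and neural crest genes, a list that shares SOX10 with the oligodendrocyte list, reached 83.0 CPM. Hindbrain regulators stayed between 2.00 and 15.4 CPM, with 2 of 9 at 0 in all libraries. Fibroblast genes were the exception, at 18.3 and 23.8 CPM on D11 and up to 2522 CPM later, and 6 of 7 were higher in mitotic than in other cells on D28 (17% of all genes), 0 of 7 on D11 (14.7%) and 0 of 7 on D45 (18.7%). Without D28 A, 3 of 7 were. In D28 B the classes lay close, with COL1A2 at 298.7 and 283.8 CPM in mitotic and other cells, COL3A1 at 44.4 and 40.2 and DCN at 20.1 and 24.7.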

How the data were processed

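Single-cell RNA was measured by droplet 3' sequencing (10x GEM-X) in 6 libraries of porcine organoids, 2 for each of 3 days. The authors deposited filtered matrices of UMI counts for 30477 genes in each library, made with Cell Ranger against Sscrofa11.1 per the submitters' processing notes, which also name Seurat 4.3.0. The files named 16266 genes and a RefSeq table named 834 more, and the remaining genes had no symbol. The mitotic cells, the gene lists and the tests were chosen with earlier results of these data known, and nothing that those results showed is independent support.

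Cells needed 2000 or more UMIs and at most 7000 genes. Raw counts were summed by library and class of cell (mitotic or other) and scaled to a total of 1000000 (CPM). The study's tests treat cells as replicates and were not used, and replicates here are libraries, which the study calls biological duplicates without saying how the cultures were separated. In the gene tests, p-values between days rest on the spread between duplicates, pooled over the 3 days. Those between classes rest on how the class difference varied between libraries, since that fit holds a library term. Classes were compared with edgeR 4.0.16 (quasi-likelihood, TMM scaling, a library term, Benjamini-Hochberg, adjusted p under 0.05), and days with the same test in mitotic cells alone. These steps were tested on simulated data with known changes. The simulated counts had the same dispersion for every gene and library, so uneven duplicates like those of D28 were not covered. Shares were compared by exact permutation over all arrangements. The adjustment over the gates and the counting intervals were made with SciPy 1.17.1. For depth, cells were thinned at random to 2000 UMIs. Doublets were called by the Scrublet method in Scanpy 1.11.5 at 0.4% per 1000 barcodes and kept unless stated. The 10 gates need 3 of 5 or 2 of 3 genes.

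Genes named were those of the lists and, in each comparison, the 10 genes that rose and the 10 that fell most among those past the threshold that had a symbol, lay outside the cell cycle lists, did not overlap between groups and reached a mean of 20 CPM. Of the lists, SOX2, MKI67, AURKA, CDKN2A, NOTCH1, HOPX, S100B and POU5F1 were among the genes that could not be matched by symbol. Alternatives were 2 or 4 rule markers, 4000 UMIs, a mitochondrial limit of 10%, doublets removed, thinned cells, other cells without the neuron gate, DESeq2 1.42.0, its size factors, no filter on low counts, a replicate block, no library term and each library left out. A rule without NUSAP1, cells without the fibroblast gate, gates with each library left out and the multiciliated group were added after the data had been seen.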

Additional observations from a re-analysis of the deposited data

Results flagged for a closer look

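For 13 named genes the difference between mitotic and other cells on D45 departed from that on D11 in a test of the change itself (edgeR quasi-likelihood, Benjamini-Hochberg over 21682 genes), and the 2 differences had opposite signs or differed in size. A change is given here on the log2 scale with its SE, D45 minus D11.

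In 7 of the genes the change was upward. FOXJ1, a regulator of motile cilia, changed by 3.27 ± 0.205, from -0.34 to 2.93 (adjusted p = 0.000182). On D45 it was at 1376 and 1398 CPM in the 34 mitotic cells with 2 of MCIDAS, CCNO and CDC20B and at 8.14 and 8.38 CPM in the remaining mitotic cells, against 12.1 and 9.42 CPM in other cells, and its D45 difference in thinned cells was 0.64 (adjusted p = 0.419). OLIG1 changed by 3.13 ± 0.274, from -1.23 to 1.90 (adjusted p = 0.000554). Its D11 value comes from less than 2 CPM in both classes, and was -0.71 without D11 A (adjusted p = 0.184) and -1.68 without D11 B. NES changed by 1.84 ± 0.101, from -0.53 to 1.32 (adjusted p = 0.000182), NFIX by 1.79 ± 0.283, from -1.24 to 0.55 (adjusted p = 0.00577), where the D11 value rests on 10 and 15 UMIs in mitotic cells and was -0.82 without D11 A (adjusted p = 0.238) and -1.78 without D11 B, and VIM by 0.90 ± 0.0954, from -0.03 to 0.87 (adjusted p = 0.00115). The floor plate genes CORIN and FOXA2 changed by 0.70 ± 0.163 and 0.64 ± 0.137 (adjusted p = 0.0266 and 0.0198), from -0.36 to 0.34 and from -0.27 to 0.37. Without fibroblast gate cells the change of CORIN was -0.09 (adjusted p = 0.879), and in thinned cells the D45 difference of FOXA2 was -0.17 (adjusted p = 0.927). Against other cells without the neuron gate the D45 difference of NFIX was -0.01 (adjusted p = 0.935).

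In the other 6 the change was downward. SIX3 changed by -2.50 ± 0.166, from 1.69 to -0.81 (adjusted p = 0.000216). WNT8B changed by -2.26 ± 0.335, from 1.60 to -0.66 (adjusted p = 0.0044), DBX1 by -1.92 ± 0.466, from 1.75 to -0.18 (adjusted p = 0.0306), and NKX2-1 by -1.62 ± 0.188, from 1.44 to -0.18 (adjusted p = 0.00178). The D45 values of WNT8B and DBX1 rest on low levels. Summed with EMX2, they were at 7.01 and 19.1 CPM in the mitotic cells of D45 A and B, and at 10.8 and 26.55 CPM in other cells. LIN28B changed by -2.06 ± 0.207, from 0.50 to -1.56 (adjusted p = 0.000924), and MBP by -2.45 ± 0.492, from -0.03 to -2.48 (adjusted p = 0.015). Against other cells without the neuron gate the D45 difference of LIN28B was 0.24 (adjusted p = 0.36) and that of SIX3 was 0.50 (adjusted p = 0.0161), past the threshold in the opposite direction. Of the 13 genes, 9 kept the call without each library in turn, and CORIN, DBX1, FOXA2 and NFIX did not.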

How the results depend on the processing

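The mean share of mitotic cells on D11, D28 and D45 was 55.0, 19.8 and 18.2% with 2 of 5 markers, 24.1, 3.51 and 2.99% with 4, 24.6, 3.57 and 3.03% without NUSAP1 and 15.5, 2.26 and 2.09% in thinned cells. On D11 it was 35.8% from 4000 UMIs and 33.9% without doublets, and on D28 4.79% without fibroblast gate cells. D11 was highest under each of these. The floor plate gate difference of -2.01 points was 0.536 at the deposited depth.

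Counts of genes moved more. D28 against D11 gave 1804 genes, and 3433 with 2 markers, 1061 with 4, 557 thinned, 1039 without NUSAP1, 3048 by DESeq2 and 77 to 8011 with a library left out. D45 against D28 gave 320, and 1229, 22, 0 (1308 at an unadjusted p under 0.05), 14 and 1735 under the same settings, 686 without fibroblast gate cells, 581 without the filter on low counts and 0 to 7375 with a library left out. D45 against D11 gave 3457, and 5336 with 2 markers, 1160 thinned and 469 to 7722 with a library left out. Mitotic against other cells gave 6484, 6999 and 6931 genes on the 3 days, 3766 and 3551 thinned on D28 and D45, 1276, 1826 and 1541 without a library term, and 2432 to 9050, 5927 to 6779 and 2890 to 8702 with a library left out. The change in this difference from D11 to D45 gave 2997, and 4888 with 2 markers, 1865 thinned, 50 without a library term and 605 to 5569 with a library left out. That from D11 to D28 gave 1830, and 4325 with 2 markers, 983 against other cells without the neuron gate, 0 without a library term (1476 at an unadjusted p under 0.05) and 532 to 3697 with a library left out. With a library left out its day had 1 library, assumed to vary like the others.

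Libraries A and B of different days shared only a letter, with correlations of their deviations of -0.425, 0.126 and -0.293. With the replicate block, D28 against D11, D45 against D28 and D45 against D11 gave 624, 0 (2807 at an unadjusted p under 0.05) and 1932 genes, and the block in place of the library term gave 1132, 1610 and 1336 for the classes and 41 and 0 (1387 at an unadjusted p under 0.05) for their change to D45 and D28.

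Of 3804 alternative values of 199 gene results, 3272 kept direction and call, 512 lost the call, 6 gained it and 14 reversed. Against other cells without the neuron gate STMN2 was at 1.66, 1.13 and 1.19 on the 3 days and SYT4 at 1.61 on D11, and on D45 GAD1 was at 0.30, LIN28B at 0.24, SIX3 at 0.50, NFIX at -0.01, AQP4 at -0.07 and APOE at -0.31. Thinned, APOE was at -0.14, FOXA2 at -0.17 and SLC1A3 at -0.27 on D45. The change of CORIN was -0.09 without fibroblast gate cells. These causes were not tested. DESeq2's size factors moved the median of all genes by at most 0.04344 on the log2 scale.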

Other observations

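Other D45 cells, outside the mitotic rule, also held at least 2 of MCIDAS, CCNO and CDC20B. There were 25 in D45 A and 22 in D45 B, with medians of 5402 and 6267.5 UMIs. FOXJ1 was at 854 and 1125 CPM in them and CENPF had no UMI. TOP2A was at 53.6 and 110 CPM and CCNA1 at 43.5 and 248 CPM. These values were not compared by a test.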
